A study of Mus musculus with 20 samples.

Results

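The cell cycle and DNA replication genes described here are 36 mouse genes, followed across the livers of 20 mice in 4 groups. They were found by symbol: every probe set whose only gene symbol in the platform annotation was one of the 36 was taken, which gave 61 probe sets for 34 genes out of 28898 one-symbol probe sets for 17097 genes. The expression of Ccnb1 and Nuf2 was not analysed here. The measured genes fall into 8 for origin licensing and the replicative helicase (Mcm2, Mcm3, Mcm4, Mcm5, Mcm6, Mcm7, Cdc6, Cdt1), 4 for DNA synthesis and nucleotide supply (Pcna, Rrm1, Rrm2, Tyms), 5 for control of the passage from G1 to S (Ccnd1, Ccne1, Ccne2, E2f1, E2f8) and 17 for mitosis (Ccna2, Ccnb2, Cdk1, Cdc20, Top2a, Mki67, Birc5, Aurka, Aurkb, Plk1, Bub1, Bub1b, Ttk, Foxm1, Spc24, Spc25, Ndc80).

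Total liver RNA came from mice of 11 weeks, 5 in each group, all F1 hybrids of C57BL6J and FVB parents. Progeroid mice carried Ercc1Δ/-, a combination of 2 defective alleles of Ercc1, whose product works in nucleotide excision repair and crosslink repair. Wild type F1 littermates were the controls. The alleles are germline, so every cell type of the liver carries them. All mice were bred and kept on AIN93G synthetic pellets, either on the control diet or with restricted food. Restriction started at 7 weeks with 10% less food and reached 30% at 9 weeks. Wild type mice ate 3.0 g per day, and restricted wild type mice received 2.1 g. For the 30% step 1.6 g per day is stated as well, with no genotype attached. Food was given just before the dark period, and the hour at which livers were taken is not in the labels.

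A cell that is to divide first loads pairs of Mcm helicase rings onto its replication origins, with the help of the loaders Cdc6 and Cdt1. Cyclins D and E then drive the cell into S phase, in which Pcna holds the polymerases on DNA and ribonucleotide reductase (Rrm1 and Rrm2) supplies the nucleotides. The later genes are needed to condense, attach and part the chromosomes in mitosis. Most hepatocytes of an adult liver are not dividing and many are polyploid, and the liver is known for re-entering the cycle after loss of tissue. The promoters of replication genes commonly carry E2F sites, while those of mitosis genes commonly carry the cell cycle genes homology region (CHR), often together with CCAAT boxes.

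To show this difference between the replication and mitosis genes in letters, promoter windows were read from RefSeq (GRCm38.p6), from 250 bases before to 50 after each transcription start, 300 bases each. Of the 36 genes, 29 had an entry, with 30 windows in all. Mcm4, Ccnd1, Ccne2, Ccna2, Aurkb, Foxm1 and Spc24 had no entry, and Mcm7 had a second window. Ccnb1 and Nuf2, whose expression was not analysed, are among the mitosis windows. Both strands were searched for 4 spellings of an E2F site (TTTCCCGC, TTTCGCGC, TTTGCCGC and TTTGGCGC), for the CHR letters TTTGAA and for CCAAT. Stretches of 150 bases are shown for 2 helicase genes and for 3 mitosis genes that differ in how they behaved, in the direction of transcription, with the E2F and CHR letters in capitals.
Mcm6: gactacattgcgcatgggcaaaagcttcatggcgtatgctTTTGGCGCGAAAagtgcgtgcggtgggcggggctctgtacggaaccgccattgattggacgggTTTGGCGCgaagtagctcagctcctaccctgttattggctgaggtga
Mcm5: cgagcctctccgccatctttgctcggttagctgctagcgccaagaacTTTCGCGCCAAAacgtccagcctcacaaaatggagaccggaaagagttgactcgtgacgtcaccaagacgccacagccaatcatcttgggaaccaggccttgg
Cdk1: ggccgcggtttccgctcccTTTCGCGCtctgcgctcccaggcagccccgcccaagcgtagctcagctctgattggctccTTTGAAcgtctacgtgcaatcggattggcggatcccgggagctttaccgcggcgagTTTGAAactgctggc
Mki67: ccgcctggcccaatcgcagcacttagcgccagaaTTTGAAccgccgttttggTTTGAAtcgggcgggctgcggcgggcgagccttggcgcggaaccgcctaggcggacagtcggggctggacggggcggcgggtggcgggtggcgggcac
Spc25: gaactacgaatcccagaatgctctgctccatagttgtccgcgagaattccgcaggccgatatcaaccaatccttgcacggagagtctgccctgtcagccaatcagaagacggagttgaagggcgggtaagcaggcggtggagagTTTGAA
The Mcm6 stretch is chr1:128359706-128359855 (minus strand) and the Mcm5 stretch is chr8:75109309-75109458 (plus strand). The Cdk1 stretch is chr10:69352913-69353062, the Mki67 stretch chr7:135716380-135716529 and the Spc25 stretch chr2:69206184-69206333, all 3 on the minus strand. The first run of capitals in Mcm6 and the run in Mcm5 are each a pair of E2F spellings that overlap on opposite strands. With the start base counted as 0, Mcm6 had matches at -110, -106 and -47, Mcm5 at -153 and -149, and Cdk1 had an E2F match at -131 and CHR letters at -71 and -15. Mki67 had CHR letters at -116 and -98, and the only ones of Spc25 lay at 24, after the start, as did those of Aurka, Bub1b, Ndc80, Plk1 and Ttk.

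E2F letters were found in 6 of the 8 windows of the 7 licensing and helicase genes with an entry (75%). Of the windows of Mcm7, only the second held them. They were in 1 of 15 windows of mitosis genes (6.67%), against 2.26% of 32851 windows of all genes. None of the 4 windows of synthesis genes and none of the 3 of G1 to S genes held them. The CHR letters were in 11 of 15 mitosis windows (73.3%) and 1 of 12 replication windows (8.33%), against 17.9% of all windows. CCAAT was in 12 of 15 mitosis windows (80%) and 9 of 12 replication windows (75%), against 37.4% of all. A match is a string of letters and not a measured binding site.

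The values are log2 expression per probe set, and each gene is represented by its probe set with the highest mean over all arrays. Many of these genes were dim in liver: 18 of the 34, 14 of 17 mitosis genes among them, had a mean under 5 in every group, while 48.1% of all genes had an overall mean under 5. Differences near the bottom of the scale are understated. Arrays correlated with each other at 0.979 to 0.996. Ercc1 itself was lower in every progeroid animal than in any wild type animal, with 5.30 ± 0.15 (SD, n = 5) against 6.54 ± 0.07 on the control diet and 4.80 ± 0.24 against 6.15 ± 0.12 on the restricted diet. The highest hepatocyte marker was Alb, at a mean of 14.32. Of the markers of other cells, the 12 of Kupffer cells and all of endothelial cells had means of at least 5, whereas all 8 of T and NK cells, all 5 of B cells and all 5 of bile duct cells lay below. In whole liver, fewer cells of a type and less RNA per cell cannot be told apart.

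A gene was called higher or lower at a limma adjusted p under 0.05 over all 17097 genes. On the control diet, 4 of the 34 genes were higher in progeroid mice and 0 lower, and all 4 were helicase subunits (Mcm2, Mcm3, Mcm4, Mcm6); of all genes 6.70% were higher and 4.32% lower. The groups did not overlap for 2 of them, Mcm2 and Mcm6, and for 5.40% of all genes upward and 3.95% downward. On the restricted diet, 9 were higher in progeroid mice (Mcm2, Mcm4, Mcm5, Mcm6, Cdt1, Ccnd1, Ccne2, Cdk1, Spc25) and 1, Rrm2, was lower, against 11.8% and 5.44% of all genes. In this comparison 9 genes were higher without overlap, namely all of the called ones except Cdt1 together with Ccna2, and Rrm2 was lower without overlap, against 7.95% and 3.94% of all genes. Restriction in wild type mice was followed by higher Cdt1, Pcna, Rrm1 and Rrm2 and by lower Mcm5, Ccnd1, E2f8, Cdk1, Aurkb and Spc25, 4 and 6 of 34, against 9.92% and 12.6% of all genes. The groups did not overlap for 3 higher genes (Pcna, Rrm1, Rrm2) and 6 lower ones (Mcm2, E2f8, Cdk1, Aurkb, Spc25 and Mki67), 2 of which, Mcm2 and Mki67, were not called, against 6.90% and 8.77% of all genes. In progeroid mice it was followed by higher Cdt1, Ccne1 and Ccne2 and no lower gene, 3 and 0 of 34, against 6.94% and 5.07%, and 1 of them, Cdt1, was higher without overlap, against 5.19% upward and 3.78% downward. The diet effect differed between genotypes for 1 gene, Spc25, against 1.03% of all genes with a higher and 0.374% with a lower effect in progeroid mice. The restricted wild type arrays enter both the genotype comparison on that diet and the diet comparison in wild type mice, so their calls for 1 gene are not independent.

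**Figure D1:**
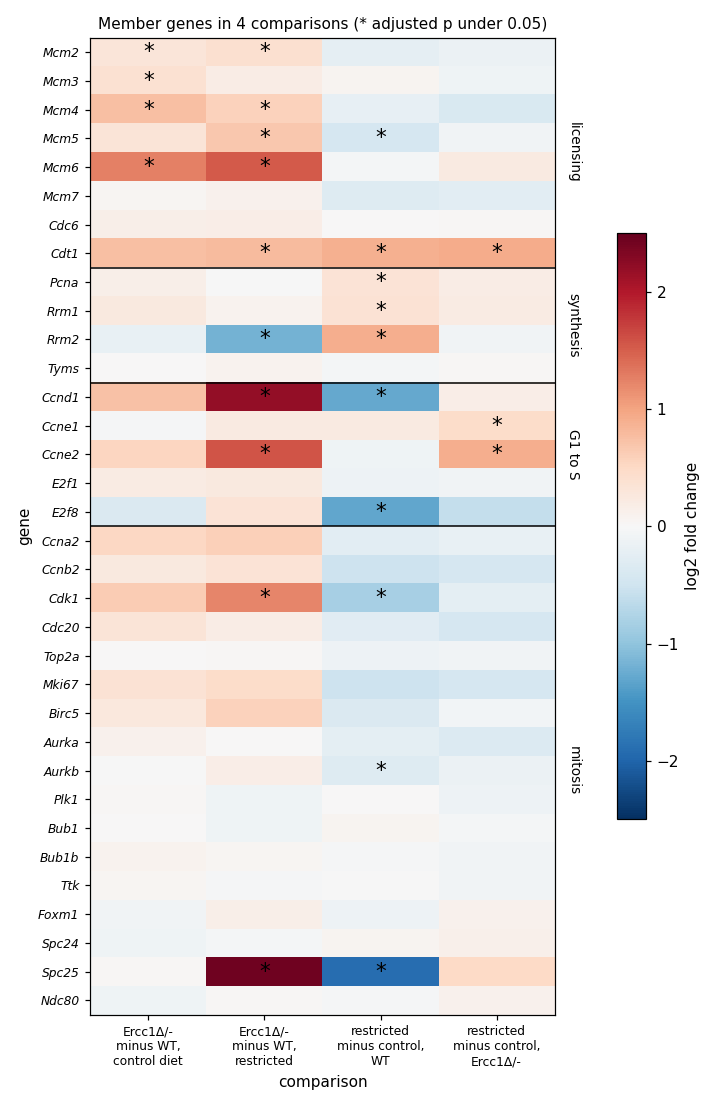
Log2 fold change (colour, from blue for lower to red for higher) of the 34 measured genes in 4 comparisons (columns), with genes in rows grouped by role and a star where the limma adjusted p was under 0.05. The stars of the first column lie only among helicase genes (4 of 34), those of the second column in each of the licensing, synthesis, G1 to S and mitosis blocks, and the mitosis block has stars for Cdk1, Aurkb and Spc25 only.

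Another scaling changes how these counts divide. When each array's median over all genes was subtracted, the genotype contrasts shifted by -0.10 on the control diet and -0.17 on the restricted diet, and the calls over all genes went from 1145 higher and 738 lower to 764 and 2798, and from 2018 and 930 to 1158 and 6513. For the diet effect in progeroid mice they went from 1186 and 867 to 940 and 1133, for restriction in wild type mice from 1696 and 2146 to 1924 and 1688, and for the difference of diet effects from 176 and 64 to 106 and 83. Among the 34 genes, the counts became 2 and 0, 9 and 3, 3 and 0, 4 and 4, and 1 and 0 in these comparisons.

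Of the 6 measured helicase subunits, Mcm2, Mcm4 and Mcm6 were called higher in progeroid mice on both diets, Mcm3 on the control diet, Mcm5 on the restricted diet and Mcm7 on neither. After the other scaling 2 of the 8 licensing and helicase genes were called higher on the control diet and 5 on the restricted diet. The mean over the 8 licensing and helicase genes was 5.10 ± 0.19 (SD, n = 5) in wild type control, 5.07 ± 0.10 in wild type restricted, 5.60 ± 0.19 in progeroid control and 5.62 ± 0.05 in progeroid restricted mice. All 8 had a positive genotype difference on both diets, with a median log2 difference of 0.35 on the control and 0.49 on the restricted diet. The median over all genes was -0.01 and -0.00261. After the other scaling the medians were 0.25 and 0.32 for the 8 genes and -0.117 and -0.175 for all genes. Between the genotypes, 3 genes were higher on both diets (Mcm2, Mcm4 and Mcm6). That is 75% of the 4 called on the control diet and 33.3% of the 9 called on the restricted diet. These 2 comparisons share no array, but both tests use the same estimate of spread, made from the arrays of all groups. Their calls for a gene are therefore not fully independent. The overlap of calls over all genes is not given here.

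Mcm6, a subunit of the helicase ring, had the largest genotype difference of the replication genes on both diets. Its levels were 5.42, 5.29, 5.90, 5.17 and 5.12 in wild type control mice and 7.16, 6.80, 6.09, 6.35 and 6.81 in progeroid control mice. On the restricted diet they were 5.42, 5.22, 5.55, 5.32 and 5.16 in wild type and 7.04, 6.78, 7.03, 6.85 and 6.62 in progeroid mice. Every progeroid animal lay above every wild type animal. The log2 fold change was 1.26 ± 0.166 (SE; adjusted p = 3.394e-05), or 2.40-fold, on the control diet and 1.53 ± 0.166 (adjusted p = 2.907e-06), or 2.89-fold, on the restricted diet. Restriction moved it by 0.22 in progeroid and -0.05 in wild type mice, and neither passed the test.

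Mcm4, another ring subunit, stood at 5.66, 5.80, 6.07, 5.72 and 5.80 in wild type control and at 6.96, 6.71, 6.23, 6.002 and 6.89 in progeroid control mice. On the restricted diet it stood at 5.60, 5.59, 5.74, 5.54 and 5.54 in wild type and 6.15, 5.99, 6.37, 6.26 and 6.17 in progeroid mice. The restricted groups were separate, and on the control diet 1 progeroid animal lay below the highest wild type animal. The differences were 0.75 ± 0.14 (adjusted p = 0.0012) on the control and 0.58 ± 0.14 (adjusted p = 0.0059) on the restricted diet. Mcm2 differed by less, with 6.47 ± 0.12 (SD, n = 5) against 6.78 ± 0.13 on the control diet and 6.23 ± 0.07 against 6.63 ± 0.18 on the restricted diet. These are 0.31 ± 0.0845 (adjusted p = 0.0202) and 0.39 ± 0.0845 (adjusted p = 0.0025), and the groups were separate on both diets. A second, dimmer probe set of Mcm2 gave 0.55 and 0.73. The Mcm2 call on the control diet was lost after the other scaling (adjusted p = 0.0914) and without any 1 of animals 321, 401 and 402 (adjusted p from 0.0551 to 0.0574).

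Mcm3 was higher in progeroid mice on the control diet by 0.37 ± 0.114 (adjusted p = 0.0379), from 4.21 ± 0.17 to 4.59 ± 0.18, and the groups overlapped. Its call was lost after the other scaling (adjusted p = 0.0879) and without any 1 of 6 animals (321, 326, 327, 401, 402 and 404; adjusted p from 0.0607 to 0.109), and its second probe set was flat at -0.01. Mcm5 passed on the restricted diet. It stood at 3.73, 3.27, 3.01, 3.82 and 3.41 in wild type and at 4.34, 4.27, 3.99, 4.09 and 3.94 in progeroid mice, with no overlap and a difference of 0.68 ± 0.153 (adjusted p = 0.0037). Against wild type control mice (3.88 ± 0.14) the restricted wild type level of 3.45 ± 0.34 was lower by a log2 difference of -0.43 (adjusted p = 0.0487), a call lost after the other scaling (adjusted p = 0.084) and without any 1 of 14 animals (adjusted p from 0.0505 to 0.151). Mcm7 and Cdc6 were called in no comparison. Mcm7 had 6.48 ± 0.22 and 6.15 ± 0.28 in wild type control and restricted mice (adjusted p = 0.0524), and its second probe set was called lower there at -0.61. Cdc6 lay near the bottom of the scale, from 3.05 to 3.22 in group mean.

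Cdt1, the helicase loader, was the 1 licensing gene called higher on restriction in both genotypes, and these calls rest on its brightest probe set. Its levels were 5.88, 5.18, 6.26, 4.57 and 5.81 in wild type control and 6.57, 6.23, 7.22, 5.80 and 6.35 in wild type restricted mice. In progeroid mice they were 6.28, 6.24, 6.44, 6.33 and 6.19 on the control and 7.53, 7.14, 7.06, 7.10 and 7.29 on the restricted diet. The progeroid groups were separate and the wild type groups overlapped. The diet effect was 0.93 ± 0.249 (adjusted p = 0.0184) in progeroid and 0.89 ± 0.249 (adjusted p = 0.0132) in wild type mice, and the genotype effect on the restricted diet was 0.79 ± 0.249 (adjusted p = 0.0327). The last was lost without any 1 of animals 362, 368, 369, 422, 424 and 425 (adjusted p from 0.0507 to 0.103). The 3 probe sets of Cdt1 disagreed: on restriction the second gave 0.46 in progeroid mice (adjusted p = 0.15 with suffixed probe sets left out) and 0.06 in wild type mice, and the third, dim at 3.55, was called lower in progeroid mice on both diets, at -0.23 and -0.25. With the mean of its probe sets the calls on restriction in wild type mice (0.33; adjusted p = 0.117) and between genotypes on the restricted diet (0.42; adjusted p = 0.054) were lost, and the former was lost with the arrays of its 2 groups only (adjusted p = 0.0634).

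**Figure D2:**
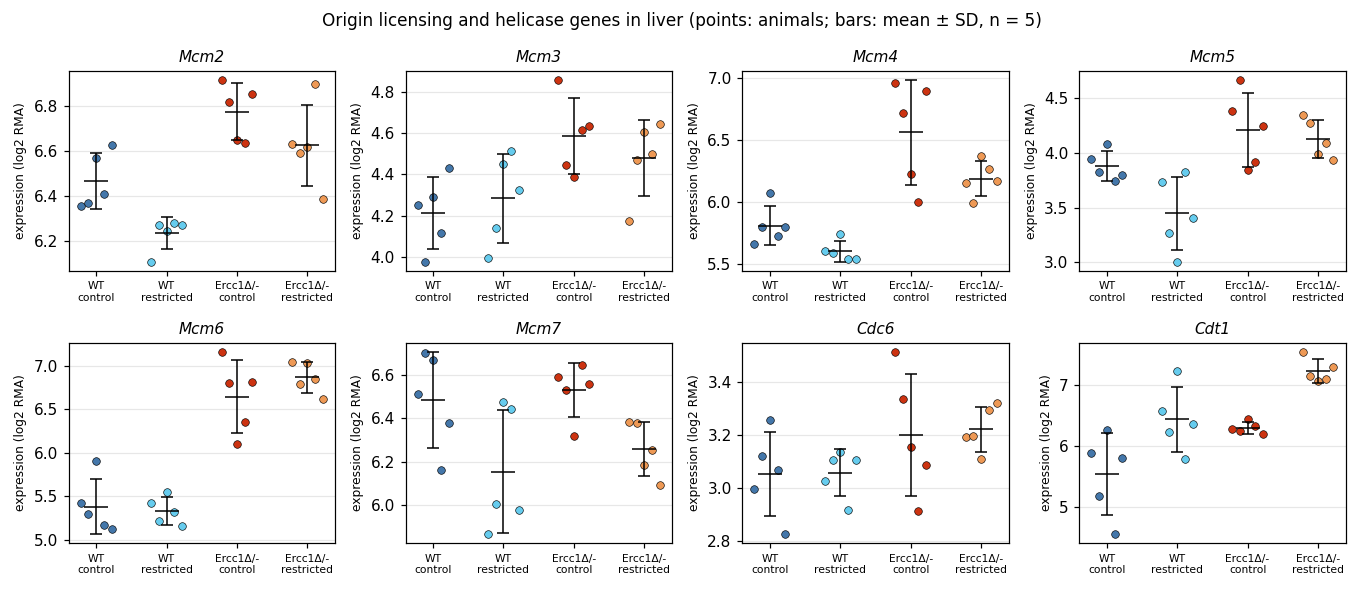
Log2 expression (vertical axis) of the 8 licensing and helicase genes in each animal, by group, with mean ± SD bars (n = 5) and a separate scale for each panel. For Mcm6 every progeroid animal, at 6.09 or more, lies above every wild type animal, at 5.90 or less, and for Cdt1 the restricted group of each genotype has the higher mean.

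Of the 4 synthesis and nucleotide genes, 3 rose on restriction in wild type mice (Pcna, Rrm1 and Rrm2), 75% against 9.92% of all genes. Between genotypes 0 were called on the control diet. Pcna, the sliding clamp of the polymerases, had levels of 10.13, 10.14, 10.14, 10.13 and 10.07 in wild type control and 10.48, 10.48, 10.37, 10.56 and 10.46 in wild type restricted mice. The groups were separate and the rise was 0.35 ± 0.0855 (adjusted p = 0.00554), or 1.27-fold. In progeroid control mice it ran from 10.05 to 10.54, with 2 animals at the restricted level and 3 near the wild type control level, and in progeroid restricted mice it ran from 10.31 to 10.58. The diet effect in progeroid mice was 0.19 (95% confidence interval from 0.00837 to 0.365; adjusted p = 0.175), and the difference of the diet effects, -0.16, did not pass the test (adjusted p = 0.596). Rrm1, the large subunit of ribonucleotide reductase, rose on restriction in wild type mice from 6.31 ± 0.15 to 6.67 ± 0.07 with separate groups (0.36 ± 0.0857, adjusted p = 0.00462). Its dimmer probe set gave 0.08, which did not pass. With the mean of its probe sets the call was lost (0.22, limma adjusted p = 0.0684).

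Rrm2, the small subunit of the reductase and the one that limits its activity in the cycle, differed between genotypes on the restricted diet. It stood at 6.11, 5.39, 5.99, 5.94 and 6.002 in wild type control and 6.95, 6.32, 6.96, 7.42 and 6.33 in wild type restricted mice. In progeroid mice it stood at 6.47, 6.15, 5.09, 5.53 and 5.24 on the control and 5.54, 5.75, 5.97, 5.32 and 5.49 on the restricted diet. Every restricted wild type animal lay above every animal of the other 3 groups except progeroid control animal 321, at 6.47. The rise on restriction in wild type mice was 0.91 (adjusted p = 0.00955), and restricted progeroid mice were lower than restricted wild type mice by a log2 fold change of -1.18 ± 0.242 (adjusted p = 0.00169). The second probe set gave 0.54, which did not pass, and -0.79, which did (adjusted p = 0.0467 over all probe sets). Tyms, which makes thymidylate, was called nowhere, with group means from 7.27 to 7.37.

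**Figure D3:**
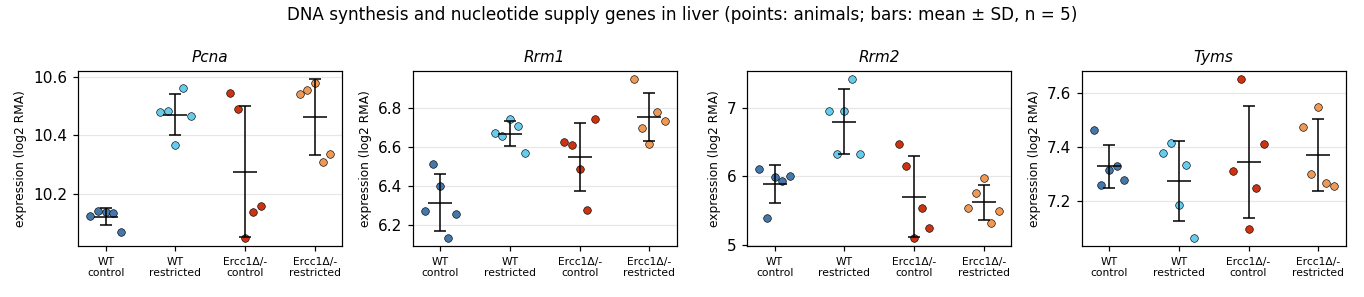
Log2 expression (vertical axis) of Pcna, Rrm1, Rrm2 and Tyms in each animal, by group, with mean ± SD bars (n = 5) and a separate scale for each panel. Restricted wild type mice have the highest Rrm2 mean, at 6.80, and Tyms group means stay between 7.27 and 7.37.

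Of the G1 to S genes, the cyclins Ccnd1 and Ccne2 were higher in progeroid than in wild type mice on the restricted diet. Ccnd1 encodes cyclin D1, which activates Cdk4 and Cdk6. Its levels were 9.17, 8.19, 8.53, 8.72 and 8.35 in wild type control and 8.65, 7.35, 6.17, 7.08 and 7.35 in wild type restricted mice. In progeroid mice they were 9.17, 9.06, 9.30, 9.44 and 9.70 on the control and 8.71, 9.12, 9.79, 10.11 and 9.81 on the restricted diet. Every restricted progeroid animal lay above every restricted wild type animal, although animal 421 of the wild type group, at 8.65, came close. The genotype effect on that diet was 2.19 ± 0.326 (adjusted p = 9.207e-05), or 4.56-fold, and restriction in wild type mice was followed by a log2 difference of -1.27 (adjusted p = 0.00735). All 3 probe sets of Ccnd1 were called in both comparisons. The diet effects differed by 1.45 between genotypes, which did not pass (adjusted p = 0.132), but did without animal 421 (1.78; adjusted p = 0.0135).

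Ccne2, a cyclin E, stood at 4.28, 3.90, 3.69, 3.495 and 3.72 in restricted wild type and at 4.42, 5.51, 5.78, 5.47 and 5.74 in restricted progeroid mice. The groups were separate, with progeroid animal 362 far below its group, and the difference was 1.57 ± 0.251 (adjusted p = 1.831e-04). Restriction raised Ccne2 in progeroid mice from 4.47 ± 0.50 to 5.38 ± 0.56 (0.92 ± 0.251, adjusted p = 0.0206). This call was lost without any 1 of animals 325, 366 and 369 (adjusted p from 0.055 to 0.0582). It was also lost with the arrays of its 2 groups only (limma adjusted p = 0.0565) and without animals 323 and 403 together (limma adjusted p = 0.0588). In wild type mice the diet effect on Ccne2 was -0.12 (adjusted p = 0.798). The difference of these effects, 1.03 ± 0.356, did not pass (adjusted p = 0.17), but did without animal 362 (adjusted p = 0.0311). Ccne1, the other cyclin E, rose in progeroid mice on restriction from 4.74 ± 0.20 to 5.20 ± 0.22 (0.47 ± 0.149; adjusted p = 0.0461) and lost this call without any 1 of 12 animals (adjusted p from 0.052 to 0.123).

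The E2F factors control transcription of the replication genes, E2f1 as an activator and E2f8 as a repressor. E2f8 fell on restriction in wild type mice, from 5.91, 5.24, 6.62, 5.06 and 4.95 to 4.61, 4.12, 4.49, 4.30 and 3.78. The groups were separate and the log2 difference was -1.29 ± 0.316 (adjusted p = 0.00528). In progeroid mice its mean was 5.20 ± 0.76 on the control and 4.60 ± 0.26 on the restricted diet, which did not pass. E2f1 passed in no comparison on its brighter probe set, with 4.23 ± 0.14 in wild type and 4.47 ± 0.11 in progeroid restricted mice (adjusted p = 0.0517). Its other probe set was called higher in progeroid mice on that diet at 0.29 and lower on restriction in wild type mice at -0.21.

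The mean over the 17 mitosis genes was 4.20 ± 0.11 (SD, n = 5) in wild type control, 3.88 ± 0.06 in wild type restricted, 4.33 ± 0.31 in progeroid control and 4.22 ± 0.12 in progeroid restricted mice. The 5 restricted wild type animals ran from 3.80 to 3.96, below every other animal. For 12 of the 17 genes restricted wild type mice had the lowest group mean, and for 11 progeroid control mice had the highest. The shares of all genes with these orders were not counted, so the 2 counts have no background. Within the progeroid control group, animal 323 alone was the highest for 12 of the 17 genes. In the test, restriction in wild type mice gave 3 of the 17 lower (Cdk1, Aurkb, Spc25; 17.6%, against 12.6% of all genes) and 0 higher, with a median of -0.25 over the 17 genes against -0.03 over all genes. After the other scaling 2 were lower and the median was -0.21. Between genotypes 0 were called on the control diet (against 6.70% higher and 4.32% lower of all genes), with a median of 0.06. On the restricted diet 2 were higher (Cdk1 and Spc25, 11.8%, equal to the 11.8% of all genes) and 0 lower, with a median of 0.15. After the other scaling the genotype medians were -0.05 and -0.025, while those over all genes were -0.117 and -0.175. Plk1 and Bub1 were then called lower on the restricted diet, as were 6513 of all 17097 genes. In progeroid mice 0 of the 17 were called on restriction (against 6.94% higher and 5.07% lower of all genes), with a median of -0.10.

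Spc25, a subunit of the Ndc80 complex that ties kinetochores to microtubules, had the largest difference of the 34 genes between genotypes on the restricted diet, on restriction in wild type mice and between the diet effects. Its levels were 7.65, 7.13, 7.63, 7.11 and 6.99 in wild type control and 6.04, 5.33, 5.15, 4.94 and 5.55 in wild type restricted mice. In progeroid mice they were 7.28, 7.62, 6.80, 7.47 and 7.504 on the control and 8.05, 7.25, 7.98, 7.94 and 7.96 on the restricted diet. The restricted wild type group stood alone below the other 3 groups, which overlapped. The diet effect in wild type mice was -1.90 ± 0.201 (adjusted p = 1.176e-06), a 3.74-fold fall, and in progeroid mice 0.50 ± 0.201 (adjusted p = 0.118). The difference of the diet effects was 2.40 ± 0.284 (adjusted p = 1.895e-04), and the genotype effect on the restricted diet was 2.44 ± 0.201 (adjusted p = 8.323e-08), or 5.41-fold. The other measured subunits of the same complex were called in no comparison, with group means from 6.73 to 6.90 for Spc24 and from 3.64 to 3.76 for Ndc80. Spc25 has a single probe set on the array. It is a suffixed probe set, so the run with suffixed probe sets left out does not cover Spc25.

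Cdk1, the kinase that drives entry into mitosis, stood at 4.71, 4.99, 5.32, 4.69 and 5.26 in wild type control and at 4.20, 4.54, 4.04, 4.01 and 4.01 in wild type restricted mice. In progeroid mice it stood at 5.38, 6.70, 5.03, 5.63 and 5.35 on the control and at 5.03, 5.32, 5.79, 5.25 and 5.49 on the restricted diet. Restricted wild type mice again lay below all others. The diet effect in wild type mice was -0.83 ± 0.227 (adjusted p = 0.011) and the genotype effect on the restricted diet 1.21 ± 0.227 (adjusted p = 7.793e-04); on the control diet the genotype difference of 0.63 did not pass (adjusted p = 0.0837). Aurkb, a kinase of the chromosomal passenger complex, was dim, and its mean was 3.40 ± 0.11 in wild type control and 3.08 ± 0.05 in wild type restricted mice. These groups were separate (-0.32 ± 0.101; adjusted p = 0.0273), and the call was lost after the other scaling (adjusted p = 0.0557) and without any 1 of animals 402, 403, 422 and 425 (adjusted p from 0.052 to 0.0646).

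Mki67, the gene of the Ki-67 proliferation marker, was called in no comparison. Its levels were 3.72, 3.75, 3.81, 3.49 and 3.98 in wild type control and 3.24, 3.02, 3.17, 3.21 and 3.47 in wild type restricted mice. In progeroid mice they were 3.80, 5.17, 3.67, 4.14 and 3.82 on the control and 3.49, 3.30, 4.10, 3.52 and 4.05 on the restricted diet. The wild type groups were separate, but the difference of -0.53 did not pass (adjusted p = 0.0867). Ccna2, a cyclin of S phase and mitosis, had 3.74 ± 0.09 in restricted wild type and 4.34 ± 0.22 in restricted progeroid mice, also separate and also not called (adjusted p = 0.0768). Progeroid control animal 323 was the highest of its group for 12 of the 17 mitosis genes, at 5.17 for Mki67, 6.70 for Cdk1 and 5.69 for Ccna2, and its mean over the 17 was 4.86 against 4.07 to 4.36 for the other 4. Without this animal, Ccna2 (adjusted p = 0.00535), Mki67 (adjusted p = 0.0266) and Birc5 (adjusted p = 0.0485) were called higher in progeroid mice on the restricted diet and Mki67 was called lower on restriction in wild type mice (adjusted p = 0.0109), although the animal belongs to none of these 3 groups; its values enter the shared estimate of spread.

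Of the 34 genes, 18 were called in no comparison: 14 mitosis genes, Mcm7, Cdc6, Tyms and E2f1. Their genotype differences ran from -0.12 to 0.52 on the control and from -0.11 to 0.60 on the restricted diet, and their diet effects from -0.43 to 0.13 in progeroid and from -0.53 to 0.06 in wild type mice. The widest of their 95% confidence intervals reached 1.11 upward in the genotype comparisons and -1.09 downward in the diet comparisons, so the intervals of the most variable of them include changes near 2-fold. Top2a, the topoisomerase that untangles sister chromatids, was flat on its brightest probe set (0.01 on the control diet), while another of its 3 probe sets gave 0.65, which did not pass either (adjusted p = 0.0601 over all probe sets).

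**Figure D4:**
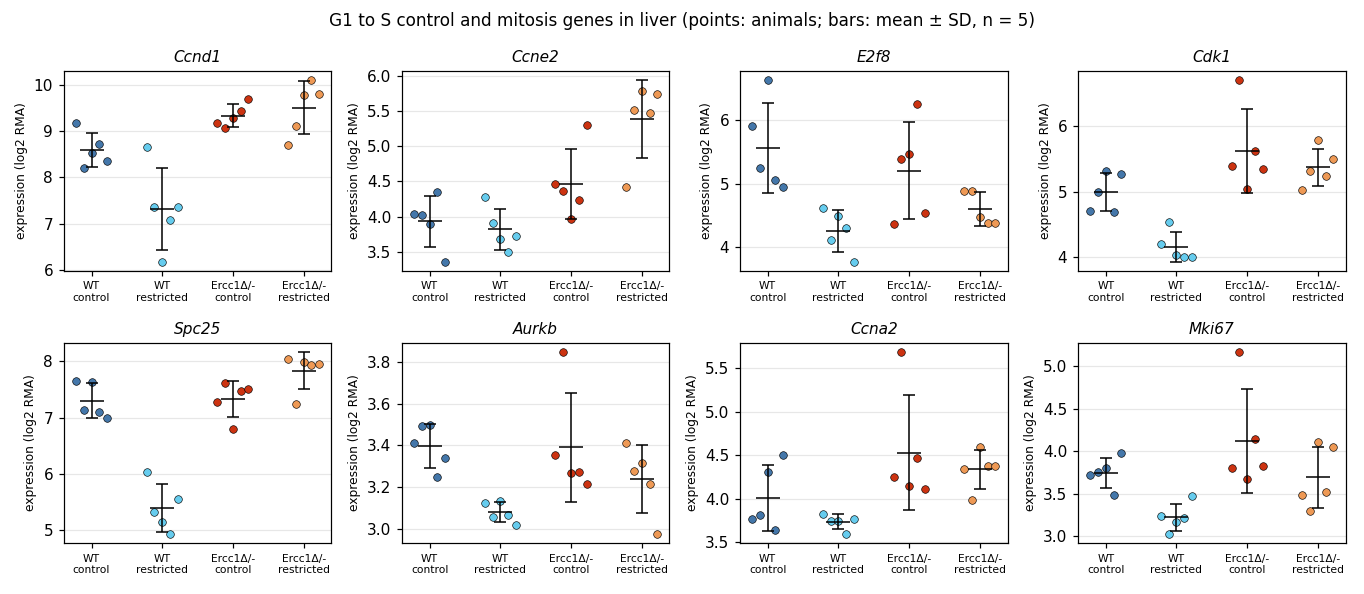
Log2 expression (vertical axis) of 3 G1 to S genes and 5 mitosis genes in each animal, by group, with mean ± SD bars (n = 5) and a separate scale for each panel. Restricted wild type mice lie lowest for Spc25 (6.04 or less) and Cdk1 (4.54 or less), and progeroid control animal 323 stands high for Cdk1 (6.70), Ccna2 (5.69) and Mki67 (5.17).

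Other genes of the same processes were read from wider lists. Of 45 other replication genes, 8 were higher (17.8%, against 6.70% of all genes) and 0 lower in progeroid mice on the control diet, led by Rpa1, a subunit of the single-strand binding protein (0.54), the primase subunit Prim1 (0.64) and the fork protection factor Timeless (0.75). On the restricted diet 13 were higher (28.9%, against 11.8%) and 1 lower, led by the helicase cofactors Gins2 (0.61) and Gins4 (0.39) and by Rfc2 of the clamp loader (0.36). Restriction gave 6 higher (13.3%, against 6.94%) and 1 lower in progeroid mice, led by Gmnn, the inhibitor of Cdt1 (0.75), Mcm8 (0.60) and the ligase Lig1 (0.69). In wild type mice it gave 6 higher and 5 lower (13.3% and 11.1%, near the 9.92% and 12.6% of all genes), with Gmnn at 1.04, the helicase cofactor Gins1 at 0.87 and Mcm10, which activates the helicase, at -2.02.

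Of 53 other mitosis genes, 3 were higher in progeroid mice on the control diet (5.66%, near the 6.70% of all genes), with Ube2c (1.30) and Ckap2 (1.29) in front and Mad2l1 of the spindle checkpoint at 0.51, and 9 on the restricted diet (17%, against 11.8%), led by the condensin subunit Smc2 (1.24), the centromere protein gene Cenpk (0.72) and the centrosome kinase gene Nek2 (1.17); 0 were lower in either comparison. Restriction gave 0 higher and 10 lower in wild type mice (18.9%, against 12.6% lower of all genes), with Nek2 at -1.71, Ccnf at -1.34 and Cenpk at -0.60, and 0 higher and 2 lower in progeroid mice (3.77%, against 5.07%), Cenpe (-0.37) and Knl1 (-0.27). The mean over the 53 ran from 4.19 to 4.23 in restricted wild type animals, below the lowest of all others at 4.33. The difference of the diet effects passed for Nek2 (1.48) and Cenpk (0.77).

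A further list held 19 other cyclins, kinases, E2F factors and regulators of the cycle, among them Myc and Lin54. Of these, 6 were higher (31.6%, against 11.8% of all genes) and 0 lower in restricted progeroid than restricted wild type mice. They were led by Ccnd3 (0.80) and its partner kinase Cdk6 (0.77) and by E2f3 (0.72). On the control diet 2 were higher (10.5%, against 6.70%) and 1 lower (5.26%, against 4.32%): Ccnh (0.33), Myc (2.25) and Cdk2 (-0.31). Restriction gave 4 higher (21.1%, against 6.94%) and 0 lower in progeroid mice, led by Lin54 (0.52), Cdk2 (0.35) and Cdk6 (0.44), and 2 higher and 4 lower in wild type mice (10.5% and 21.1%, against 9.92% and 12.6%), with E2f3 at -0.81, Ccnd3 at -0.36 and Ccnh at 0.24. The difference of the diet effects passed for Ccnd3 (0.71 ± 0.121; adjusted p = 0.00664), Cdk6 (0.55) and E2f3 (0.65).

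Among 25 inhibitors and brakes of the cycle, 5 were higher (20%, against 6.70% of all genes) and 0 lower in progeroid mice on the control diet. Cdkn1a, the p21 inhibitor, stood at 5.68, 5.54, 5.80, 5.81 and 5.68 in wild type and 7.49, 8.15, 7.64, 8.44 and 6.88 in progeroid mice, with no overlap (2.02 ± 0.269; adjusted p = 3.864e-05). Rbl1, the p107 pocket protein (1.13), and the p53 target Ccng1 (0.80) rose with it. On the restricted diet 6 were higher and 2 lower (24% and 8%, against 11.8% and 5.44%), with Ccng1 at 0.92, Rbl1 at 0.76 and Cdkn1a at 1.23. Restriction was followed by 4 higher and 1 lower in progeroid mice (16% and 4%, against 6.94% and 5.07%) and by 4 higher and 2 lower in wild type mice (16% and 8%, against 9.92% and 12.6%). Cdkn1c (p57) differed by 1.26 in progeroid and 1.06 in wild type mice and Cdkn2c (p18) by 0.85 and 1.18, Wee1, a brake on Cdk1, by 1.23 in progeroid mice, and Ccng2 by -0.79 in wild type mice. Cdkn1a fell by 1.19 on the log2 scale in restricted progeroid mice (adjusted p = 0.0064), to 6.53 ± 0.34. On the control diet Cdkn1a and 4 of the 8 licensing genes were thus higher in the same progeroid livers.

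Markers of other cells moved in the same comparisons. Of the 12 Kupffer cell and macrophage markers, 3 were higher in progeroid mice on the control diet (25%, against 6.70% of all genes). On the restricted diet 10 were higher (83.3%, against 11.8%), with a median of 0.66 there. Cd5l, the brightest of them, differed by 0.72 and Marco by 1.20. On restriction in wild type mice 4 were lower (33.3%, against 12.6% of all genes) and 0 higher, with a median of -0.43 and Adgre1 at -0.94. The mean over the 12 ran from 7.42 to 7.96 in restricted wild type, from 7.88 to 8.31 in wild type control, from 8.14 to 8.78 in progeroid control and from 8.20 to 8.97 in progeroid restricted mice. It was lowest in the same group as the mean of the mitosis genes, and its part in their result was not tested.

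Of the 8 stellate cell and fibroblast markers 3 were higher in progeroid mice on each diet, with Lum at 0.95 on the control and Col3a1 at 1.31 on the restricted diet. That is 37.5%, against 6.70% of all genes on the control and 11.8% on the restricted diet. Of the 10 neutrophil and monocyte markers 2 were higher on each diet (20%, against the same shares), S100a8 (1.47 and 1.22) and S100a9 (1.47 and 1.13). Means under 5 were found for 9 of the 10. Of the 8 T and NK cell markers 3 were lower on restriction in wild type mice (37.5%, against 12.6% of all genes), with Gzma at -0.43. In progeroid mice 2 were lower on restriction (25%, against 5.07%). In any comparison 0 of 5 B cell and 0 of 5 bile duct markers were called. Of 10 hepatocyte markers 2 were lower on the control diet in progeroid mice (20%, against 4.32% of all genes) and 3 on the restricted diet (30%, against 5.44%). Tat differed by -0.91 and -0.47, while Alb differed by 0.02 and 0.04. On restriction 3 hepatocyte markers were higher and 0 lower in wild type mice (30% higher, against 9.92% of all genes). In progeroid mice 2 were higher and 1 lower (20% and 10%, against 6.94% and 5.07%). Of the 8 stellate cell and fibroblast markers 2 were higher and 2 lower on restriction in wild type mice (25% each, against 9.92% and 12.6%). In progeroid mice 0 of these 8 were called on restriction. On restriction in wild type mice 1 of 7 endothelial markers was lower (Clec4g, -0.69) and 0 higher, 14.3% lower and near the 12.6% of all genes. Of 5 erythroid markers 1 was lower (Alas2, -1.72) and 1 higher (Klf1, 0.78), 20% each against 12.6% and 9.92%. The part of these cells in the results was not tested.

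As a measure of RNA quality, the Gapdh control probe sets at the 3' and 5' ends differed by 0.66 ± 0.06 in wild type control, 0.76 ± 0.12 in wild type restricted, 0.93 ± 0.28 in progeroid control and 0.81 ± 0.24 in progeroid restricted mice, with the largest mean and range in progeroid control mice. With it as a covariate, 2 rather than 4 of the 34 genes were called higher in progeroid mice on the control diet. The lost calls were Mcm2, at 0.29 instead of 0.31 (adjusted p = 0.0877), and Mcm3, at 0.34 instead of 0.37 (adjusted p = 0.144). The labels give no batch.

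**Figure D5:**
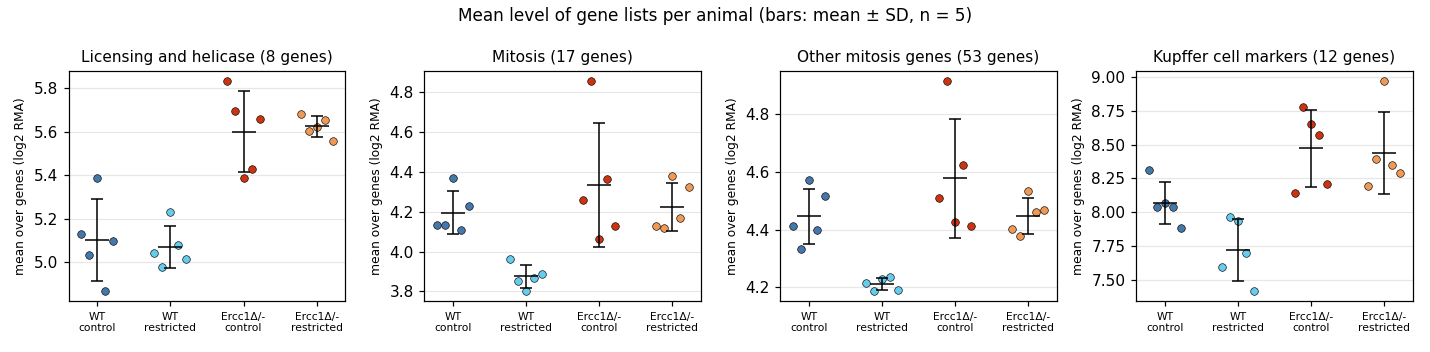
Mean log2 expression (vertical axis) of 4 gene lists in each animal, by group, with mean ± SD bars (n = 5) and a separate scale for each panel. The licensing genes have group means of 5.10 and 5.07 in wild type and 5.60 and 5.62 in progeroid mice, whereas mitosis genes and Kupffer cell markers are lowest in restricted wild type mice.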

How the data were processed

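The values analysed are the deposited log2 expression values of 20 Affymetrix arrays, 1 per animal, made by the authors with RMA, per the submitters' processing notes. RMA gives all arrays the same distribution, which removes an overall shift in expression, and understates differences of dim probe sets. The number of arrays limits the precision. Samples were grouped by their titles into 4 groups of 5 separate animals, and 0 array pairs were identical.

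Probe sets with several symbols (551), no symbol here (15588) or a control function (104) were left out; for each of the other 17097 genes the highest-mean probe set was kept. Using limma 3.58.1 (R 4.3.3; lmFit, eBayes), 4 group means were estimated from all 20 arrays, leaving 16 residual degrees of freedom. The 5 contrasts compare the genotypes within a diet, the diets within a genotype, and the diet effects between genotypes (progeroid minus wild type). Tests are two-sided at a threshold of 0.05 after Benjamini-Hochberg adjustment over all genes of a contrast. Log2 fold changes carry moderated standard errors and levels carry standard deviations. The fit was tested on simulated data.

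The genes, the wider lists and the cell markers were chosen with earlier results of these data known, so no list is independent evidence of its direction. Named are genes called in any contrast with Mki67, Pcna and Ccnd1; the 3 smallest adjusted p per wider list and contrast among called genes; Cdkn1a and Ercc1; and, per marker list, the highest-mean gene and the largest change. Every member is accounted for; uncalled members near a threshold or with disagreeing probe sets were singled out after their values were seen. Alternatives were median centring, the mean of probe sets, leaving out suffixed probe sets, testing each probe set, a minimum mean of 5, a trended robust fit, the compared arrays alone, a Gapdh covariate, each array left out, and, added after seeing the data, animals 323 and 403 left out together.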

Additional observations from a re-analysis of the deposited data

Results flagged for a closer look

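Levels of the 34 genes and list means were checked in 152 groups of 5 animals for 1 animal whose gap to its nearest neighbour exceeded 0.71 of the range (Dixon's test), and 12 groups had one; chance flags about 1 in 20. In progeroid control mice, animal 323 was high for Aurkb (3.846, nearest 3.353) and Ccna2 (5.687, nearest 4.465). In progeroid restricted mice, animal 362 was high for Bub1b (3.844) and low for Ccne2 (4.418), animal 365 was low for Spc25 (7.249) and animal 368 low for Plk1 (3.587). In wild type control mice, animal 401 was high for Ccne1 (5.307), animal 402 low for Rrm2 (5.395) and animal 405 low for Pcna (10.07). In wild type restricted mice, animal 421 was low for Mcm2 (6.106) and Top2a (3.824) and high for the mean of the 5 G1 to S genes (5.348, nearest 4.854).

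The diet effect differed between genotypes by the interaction term of the limma fit for Spc25 (2.402) and, among the wider lists, for Gins4 (0.4605), Cenpk (0.7744), Nek2 (1.479), Ccnd3 (0.7134), Cdk6 (0.5462) and E2f3 (0.6525). Ccnd3, a D-type cyclin, also moved in opposite directions without overlap of the groups: it rose on restriction by 0.35 in progeroid mice and differed by -0.36 in wild type mice.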

How the results depend on the processing

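Of 28 calls of single genes in a comparison, 18 passed under every alternative that gives a gene 1 value, and 0 reversed. The test of each probe set is not part of this count. There some probe sets differed from the call of their gene, as described for Cdt1 and Rrm2. Median centring left 2 genes higher in progeroid mice on the control diet and 3 lower on the restricted diet, and over all genes 2798 lower, then 1158 higher and 6513 lower; for the difference of diet effects it gave 106 higher. The Gapdh covariate gave 2 higher and over all genes 473 lower on the control diet, and 102 higher and 35 lower for the difference. Testing every probe set gave 1 gene lower on the control diet, 2 lower on the restricted diet and 1 lower on restriction in progeroid mice. In that comparison a minimum mean of 5 left 1 higher, and leaving out animals 323 and 403 together left 1 higher and over all genes 520 lower, with 66 higher and 23 lower for the difference. The mean of probe sets left 2 higher on restriction in wild type mice. Leaving out suffixed probe sets left 0 genes with a difference of diet effects (limma). The cause is that Spc25, the 1 gene called there, was not in that run. Leaving out 1 animal at a time gave 2 to 5 and 8 to 12 genes higher in progeroid mice on the 2 diets, 1 to 3 higher and 0 to 1 lower on restriction in progeroid mice, 4 to 7 lower in wild type mice and 1 to 2 for the difference; over all genes it gave 561 to 920 lower in progeroid mice (561 without animal 323) and, for the difference, 77 to 364 higher and 26 to 126 lower, the lowest without animal 423 and the highest without animal 421. Other causes were not tested. No paired analysis was possible because the groups share no animal numbers. The array number and the dimness of the mitosis genes limit what can be seen.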
